A study of Mus musculus with 16 samples.

Results

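The immediate early response genes described here are 34 genes that cells switch on within minutes of a stimulus, a wound or tissue dissociation. They were taken by gene symbol from the gene lists of 4 single-cell RNA-seq libraries of mouse kidney. All 34 symbols were found among the 27998 gene models of the count matrices. Each gene had at least 1 unique molecular identifier (UMI, a tag that marks a single captured RNA molecule) in at least 1 library. The study set wild type C57BL/6 mice against C57BL/6 mice with the genotype Gulo-/-. Gulo encodes the last enzyme of vitamin C synthesis, which mice carry and primates lack. Per the labels' protocols the kidneys were chopped and mixed, and the tissue was then shared out between single-cell RNA-seq, whole-genome bisulfite sequencing and MeRIP-seq. Each genotype had 2 single-cell libraries, called wild type 1, wild type 2, Gulo-/- 1 and Gulo-/- 2 here. The labels give no vitamin C supply, age, sex or dissociation method, and they do not tie a library to an animal, so the p-values below measure the spread between these libraries only.

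Immediate early genes need no new protein to be transcribed: kinases of the ERK, JNK and p38 pathways act on factors such as SRF with its ternary complex partners, and on CREB, that already sit at their promoters. The members are AP-1 transcription factors of the Fos and Jun families, other transcription factors such as Egr1, proteins that destroy short-lived mRNAs or stop growth, and feedback inhibitors that switch the kinases off again. In kidney they are known to rise after ischaemia and other injury, and they are also known to rise in any tissue that is digested with enzymes at warm temperature to free its cells.

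The libraries differed in depth and in the cells they held. They held 10208946, 61688164, 10073836 and 88925323 UMIs in the order wild type 1, wild type 2, Gulo-/- 1 and Gulo-/- 2. After filters on UMIs, genes and mitochondrial share, 1595 to 13962 barcodes per library were kept. Wild type 2 shared 986 barcodes with wild type 1, where the size of the barcode list gave 33.5 by chance, and those 986 were removed from wild type 2. Cells were placed in classes by the UMIs of marker genes, so the markers of a class are not evidence for its name. Xist, which marks cells with an inactive X chromosome, reached 4731 UMIs (wild type 1) and 67086 (Gulo-/- 2) but at most 5 in the other libraries, and the Y-linked Ddx3y reached 1793 (wild type 2) and 255 (Gulo-/- 1) but 0 elsewhere: each genotype therefore had a female and a male library. Gulo itself, at 0 to 2 UMIs a library in both genotypes, was too low to check the genotype labels. Wild type 2 had the highest median mitochondrial share per kept cell at 24.3%, where the others had 16.65% to 20.1%. Kidney cells of 5 classes had at least 20 cells in each library and were tested: proximal tubule cells, which reabsorb most of the filtrate, thick ascending limb cells, which make Umod and reclaim salt, distal convoluted and connecting tubule cells, endothelial cells and macrophages.

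The promoter windows of some members on which the results below turn are shown with exact matches to known motifs. Elements outside a window or with a mismatch are not marked. A motif that is not marked may therefore still be present at the gene. RefSeq gave a window from 250 bases before to 50 bases after the annotated start (build mm10, GRCm38.p6) for 30 of the 34 genes, with Cyr61 matched under its RefSeq symbol Ccn1. Egr1, Egr3, Ier2 and Myc had no window here. Capitals mark the letters of the TATA box, TATAAA, in Fos and Junb, and the cAMP response element (CRE) TGACGTCA in Dusp1 and Btg2. They also mark the CArG box, the site SRF binds, in Zfp36. The letters TATAAA begin at position -33 from the annotated start in Fos, but at position 1, the start itself, in Junb.
Fos (chr12:85473640-85473939, plus strand): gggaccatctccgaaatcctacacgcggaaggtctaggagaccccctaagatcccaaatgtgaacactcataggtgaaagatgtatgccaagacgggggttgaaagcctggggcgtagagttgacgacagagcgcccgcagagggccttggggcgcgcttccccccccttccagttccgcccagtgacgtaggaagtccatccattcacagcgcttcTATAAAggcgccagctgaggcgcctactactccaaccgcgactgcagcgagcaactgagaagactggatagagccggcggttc
Junb (chr8:84978699-84978998, minus strand): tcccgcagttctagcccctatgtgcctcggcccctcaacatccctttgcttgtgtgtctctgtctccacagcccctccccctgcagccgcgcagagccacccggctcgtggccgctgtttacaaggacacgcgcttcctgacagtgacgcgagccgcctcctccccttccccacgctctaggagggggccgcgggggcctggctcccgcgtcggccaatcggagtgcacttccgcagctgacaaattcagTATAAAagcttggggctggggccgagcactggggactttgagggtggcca
Dusp1 (chr17:26508423-26508722, minus strand): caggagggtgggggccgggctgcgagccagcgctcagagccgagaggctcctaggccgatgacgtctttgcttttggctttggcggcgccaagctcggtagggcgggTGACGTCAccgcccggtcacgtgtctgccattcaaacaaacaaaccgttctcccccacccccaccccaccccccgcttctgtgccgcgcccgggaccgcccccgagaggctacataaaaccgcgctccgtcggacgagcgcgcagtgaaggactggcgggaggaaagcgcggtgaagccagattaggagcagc
Btg2 (chr1:134079106-134079405, minus strand): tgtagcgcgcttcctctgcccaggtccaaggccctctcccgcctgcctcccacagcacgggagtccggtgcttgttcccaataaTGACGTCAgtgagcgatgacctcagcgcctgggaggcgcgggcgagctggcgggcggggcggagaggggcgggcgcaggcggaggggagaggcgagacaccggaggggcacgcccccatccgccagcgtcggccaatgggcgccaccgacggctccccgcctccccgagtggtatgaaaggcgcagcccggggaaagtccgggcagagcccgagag
Zfp36 (chr7:28379179-28379478, minus strand): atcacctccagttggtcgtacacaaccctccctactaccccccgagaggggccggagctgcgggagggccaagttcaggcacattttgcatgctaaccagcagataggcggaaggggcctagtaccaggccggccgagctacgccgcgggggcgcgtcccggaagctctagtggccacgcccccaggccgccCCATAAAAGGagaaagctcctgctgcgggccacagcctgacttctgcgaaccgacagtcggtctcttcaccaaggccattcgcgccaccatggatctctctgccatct
Each motif was searched on both strands with no mismatch allowed and may overlap another. The CRE was in the windows of 4 members, Dusp1, Btg2, Maff and Ppp1r15a, or 13.3% of the 30, and in 2.03% of all 27025 genes with a window. The letters of the TATA box were in those of 10 members (33.3%) and in 15.7% of all genes. They were counted at any position of the window, such as -164 in Nr4a2 and 20 in Nfkbia. The CArG box was in those of Egr2 and Zfp36, or 6.67% of members and 1.81% of all genes, and the AP-1 site TGANTCA in those of Zfp36l1 and Klf9, or 6.67% and 8.97%. A match is a run of letters and not a measured binding site.

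The summed level of the 34 genes differed between cell classes by more than it differed between genotypes. Levels are CPM values, the UMIs of a gene per 1000000 UMIs of that class in that library. In proximal tubule cells the sum was 599.2 CPM in wild type 1, 637.7 in wild type 2, 910.7 in Gulo-/- 1 and 1307.6 in Gulo-/- 2. In thick ascending limb cells it was 1259.0, 1249.4, 2044.8 and 3263.1 CPM in the same order. In both classes each Gulo-/- library stood above both wild type libraries. In distal convoluted and connecting tubule cells the sums were 1429.0, 900.0, 1524.2 and 1851.0 CPM. In endothelial cells they were 10972.3, 4535.7, 11602.9 and 13486.9 CPM. In these classes too the Gulo-/- libraries were the higher ones, but wild type 1 lay closer to them than to wild type 2. In macrophages they were 12572.7, 4975.8, 7484.4 and 16453.2 CPM, and the genotypes overlapped: the lower Gulo-/- library lay below wild type 1.

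**Figure D1:**
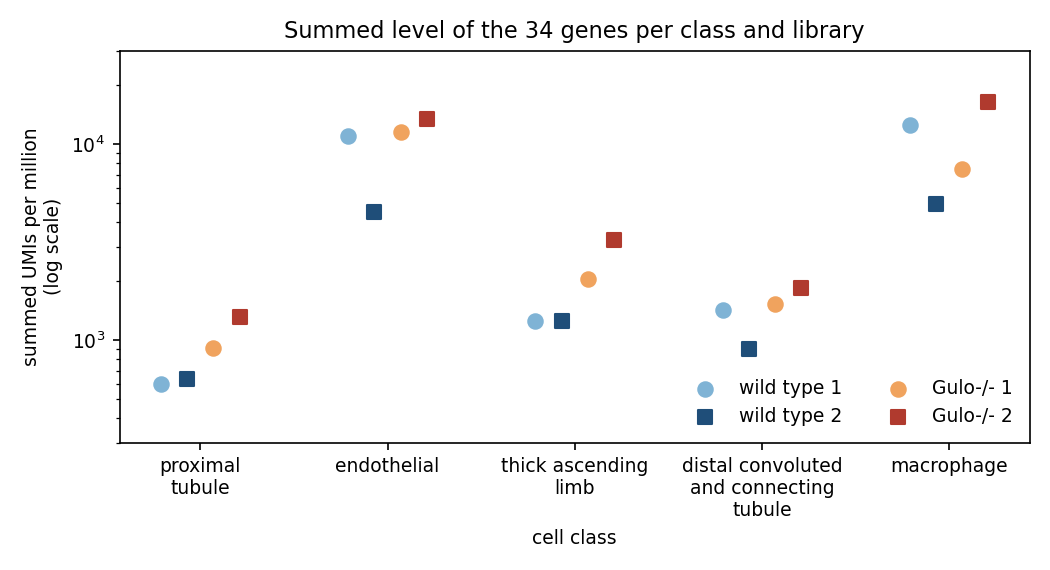
Summed level of the 34 immediate early genes (vertical axis, CPM on a log scale) in 5 cell classes (horizontal axis), with a point for each of the 4 libraries. The Gulo-/- libraries (orange and red) lie above both wild type libraries in proximal tubule and thick ascending limb cells, while wild type 2 (dark blue square) lies far below wild type 1 in endothelial cells and macrophages.

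A count per cell gave a like picture in proximal tubule and thick ascending limb cells and an overlap in distal cells. When every cell was thinned to 1000 UMIs, which left out no cell of these classes, proximal tubule cells held on average 0.5, 0.568, 0.783 and 1.199 UMIs of the members in the order wild type 1, wild type 2, Gulo-/- 1 and Gulo-/- 2. The share of proximal tubule cells without any such UMI was 65.36%, 58.66%, 54.41% and 39.81%. Thinned thick ascending limb cells held 1.059, 1.092, 1.673 and 3.103 UMIs, again with both Gulo-/- libraries on top. Thinned distal convoluted and connecting tubule cells held 1.375, 0.983, 1.344 and 1.676, so Gulo-/- 1 lay just below wild type 1, where its CPM sum lay above. Thinned endothelial cells held 9.805, 4.409, 11.662 and 12.944 UMIs, and thinned macrophages 11.212, 5.083, 7.059 and 17.667. Before thinning, the median proximal tubule cell held 1, 3, 2 and 3 member UMIs.

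In proximal tubule cells the AP-1 genes were higher in both Gulo-/- libraries, and Egr1 was the member that passed the test over all genes. Of 11152 genes tested with edgeR's quasi-likelihood test, 57 were called at a Benjamini-Hochberg adjusted p under 0.05, and 31 of these, or 0.278% of the genes tested, were higher in Gulo-/-. Of the 34 members, 30 passed the filter on low counts, and 1 of them was called. The median fitted log2 change over the 30 was 1.10, where the median over all genes tested was 0.02, and it was 1.03 over the 33 members with any UMI in these cells. Of the 30, 24 had both Gulo-/- libraries above both wild type libraries, against 35.7% of all genes tested, and 0 had both below, against 16.1%. Egr2, Egr3, Nr4a2 and Maff had too few UMIs to be tested.

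Egr1, a zinc finger transcription factor that growth factors and stretch induce, was at 2.04 CPM in wild type 1, 2.25 in wild type 2, 10.9 in Gulo-/- 1 and 19.8 in Gulo-/- 2. The wild type libraries lay close together and the Gulo-/- libraries did not reach down to them. The fitted log2 change was 2.67 ± 0.37 (SE, 2 libraries against 2), with an adjusted p of 0.037 by edgeR. Without wild type 2 the adjusted p was 0.0536, without Gulo-/- 1 it was 0.216 and without Gulo-/- 2 it was 0.303, at log2 changes of 2.22 to 2.97 over all libraries left out. With a term for sex the call was lost as well (log2 change 2.57, adjusted p 0.0762), and so it was with cells above a mitochondrial share of 25% removed (2.46, 0.0694).

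The AP-1 group binds DNA as pairs of Fos and Jun proteins, and 7 of its 8 members were tested in proximal tubule cells. Of these, 7 had non-overlapping higher levels in Gulo-/-, against 35.7% of all genes tested, with a median log2 change of 1.90. By edgeR 0 were called, though 7 had an unadjusted p under 0.05, as had 1858 of all 11152 genes tested. By DESeq2, which called 362 genes in all, 5 were called: Fos, Fosb, Jun, Junb and Jund. Fos had 7.08, 6.07, 30 and 83.9 CPM in the order wild type 1, wild type 2, Gulo-/- 1 and Gulo-/- 2. The log2 change of 2.94 ± 0.50 was the largest of the 30 tested members, but the Gulo-/- libraries differed 2.8-fold from each other, and the adjusted p was 0.0896. Jun, the main partner of Fos, had 55.2, 23.5, 125 and 165 CPM in that order. Here the wild type libraries also differed by more than 2-fold, and the log2 change of 1.69 ± 0.48 had an adjusted p of 0.202. Junb, which restrains Jun, had 9.53, 19.5, 39.7 and 83.2 CPM, with a log2 change of 1.90 ± 0.44 and an adjusted p of 0.136. Jund, the member of the family that resting cells already make, had 63.1, 80.1, 170 and 147 CPM, with a log2 change of 0.99 ± 0.24 and an adjusted p of 0.121. Both groups of Jund values were tight, and the gap between the genotypes was wider than the gap within either. Fosb, Fosl2 and Atf3 had log2 changes of 2.29, 1.09 and 2.33 from levels of at most 24.5 CPM in any library.

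Among the other transcription factors 6 of 9 were tested in proximal tubule cells. Of these, Egr1, Klf4 and Myc, 3 genes, had non-overlapping higher levels, against 35.7% of all genes tested. Klf4, which holds back proliferation and is abundant in endothelium, had 2.04, 1.47, 10.9 and 9.48 CPM and a log2 change of 2.41 ± 0.40, with an adjusted p of 0.0506 that just missed the threshold. Klf9, a target of glucocorticoid and thyroid hormone receptors, had 121, 190, 71.2 and 147 CPM in proximal tubule cells. Its genotypes overlapped, and the fitted change of -0.68 ± 0.35 (adjusted p 0.37) was in the direction opposite to that of Fos. Klf6 and Nr4a1 also overlapped, with log2 changes of 0.06 and 1.11.

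Of the genes of RNA decay and growth arrest 7 of 7 were tested. Non-overlapping higher levels were found for 5, against 35.7% of all genes tested. Zfp36 (tristetraprolin) and Zfp36l1 bind AU-rich elements of short-lived mRNAs and have them degraded. Zfp36 had 17.7, 13.9, 25.4 and 33.7 CPM (log2 change 0.73 ± 0.28, adjusted p 0.254). Zfp36l1 had 47.6, 45.3, 68.3 and 72.9 CPM (log2 change 0.43 ± 0.22, adjusted p 0.367). Both were higher in both Gulo-/- libraries, by steps that were small beside those of Fos. Btg2, an antiproliferative gene that recruits mRNA deadenylases, had 1.36, 3.45, 8 and 23.1 CPM (log2 change 2.45 ± 0.60, adjusted p 0.151). Its relative Btg1 overlapped at 35.9, 41.1, 39.2 and 71.1 CPM (log2 change 0.34 ± 0.29, adjusted p 0.58). Gadd45g, a stress gene of the growth arrest family, overlapped too at 42.6, 24.0, 21.2 and 48.4 CPM, with a log2 change of -0.12 ± 0.48 and an adjusted p of 0.924. The 2 female libraries were the high ones for Gadd45g.

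Of the feedback, survival and other genes 10 of 10 were tested. Non-overlapping higher levels were found for 9, against 35.7% of all genes tested. The exception was Dusp6, a phosphatase of ERK, at 22.6, 18.1, 5.72 and 22.7 CPM. Dusp1, a phosphatase that switches off p38 and JNK, had 38.1, 32.1, 54.9 and 81.4 CPM (log2 change 0.77 ± 0.27, adjusted p 0.21). Ier2, a short-lived nuclear protein, had 8.71, 10.6, 22.6 and 42.9 CPM (log2 change 1.58 ± 0.33, adjusted p 0.0849). Nfkbia, the inhibitor that holds NF-kB in the cytoplasm, had 18.8, 23.8, 24.6 and 31.2 CPM (log2 change 0.22 ± 0.25, adjusted p 0.696). Its genotypes were separated by a small margin, between wild type 2 and Gulo-/- 1. Mcl1, a survival protein of the Bcl2 family, had 29.5, 25.9, 34 and 41.9 CPM (log2 change 0.28 ± 0.25, adjusted p 0.609). Of the rest of this group, Ier3, Ier5, Rhob, Ppp1r15a and Cyr61 had log2 changes of 0.28 to 1.69, and none was called.

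**Figure D2:**
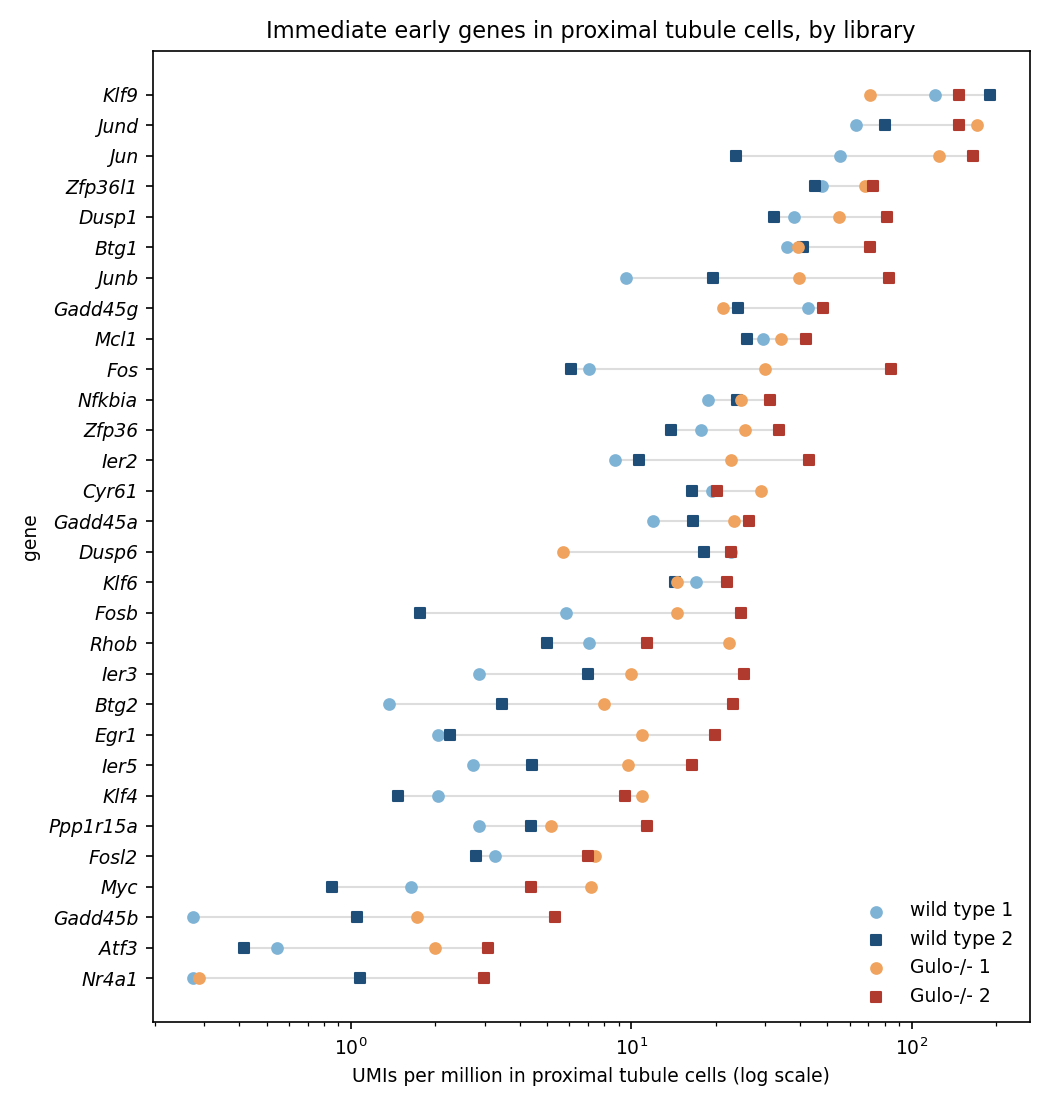
Levels of the 30 tested genes in proximal tubule cells (horizontal axis, CPM on a log scale), a row for each gene in order of mean level and a point for each of the 4 libraries, with a grey line from the lowest to the highest. The Gulo-/- points (orange, red) lie to the right of both wild type points (light and dark blue) for 24 of the 30 genes, with Fos, Egr1 and Btg2 among the widest and Klf9, Klf6, Dusp6, Gadd45g, Btg1 and Nr4a1 mixed.

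RNA of other cells was present in the proximal tubule class, and its amount differed between libraries by source. The summed markers of distal convoluted and connecting tubule (235.8, 269.4, 755.7 and 1036.7 CPM), principal (26.3, 67.7, 143.8 and 380.9 CPM) and endothelial cells were higher in both Gulo-/- libraries. Those of thick ascending limb (261.4, 625.3, 224.1 and 1015.5 CPM) and macrophages (12.1, 42.2, 18.6 and 20.8 CPM) overlapped between the genotypes. Umod stood there at 15.2, 103, 80.0 and 559 CPM, which was 0.153%, 0.732%, 0.585% and 4.24% of its level in the thick ascending limb class of the same library. The summed endothelial markers stood at 0.205%, 0.282%, 1.03% and 1.02% of their level in endothelial cells, at 32.7, 32.9, 136.6 and 100.2 CPM. Fos stood at 0.68%, 4.72%, 5.33% and 7.82% of its endothelial level and at 5.28%, 6.85%, 21.0% and 21.3% of its thick ascending limb level. Egr1 stood at 9.94% and 9.88% of its endothelial level in Gulo-/- 1 and Gulo-/- 2. These shares of Fos and Egr1 were several times those of the marker list in the same library. Nr4a1, at 0.663% in Gulo-/- 1, was the single tested member below the list. Klf4 was nearer to the markers, at 1.86% and 1.59% of its endothelial level in the Gulo-/- libraries, and so was Rhob, at 1.79% in both. Measured against the thick ascending limb class, the tested members with a UMI in that class all stood above its marker list in every library, with lowest shares of 1.83%, 6.21%, 4.54% and 14.2% where the list stood at 1.3%, 2.45%, 1.14% and 4.98%. The margin was smallest in wild type 1. Measured against principal cells, the tested members with a UMI there stood above the marker list's share in wild type 2, Gulo-/- 1 and Gulo-/- 2, where principal cells could be counted. Egr1 stood close to it in wild type 2, at 0.275% where the list stood at 0.259%, and at 3.94% and 3.89% in the Gulo-/- libraries, where the list stood at 0.382% and 0.875%. The part of such RNA in the fitted changes was not tested.

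In thick ascending limb cells 7 members rose in Gulo-/-: Zfp36, Dusp1, Egr1, Junb, Ier2, Jund and Btg2. Of 6343 genes tested 86 were called, and 47 of these, or 0.741% of the genes tested, were higher in Gulo-/-. The tested members numbered 24, and 16 of these had non-overlapping higher levels in Gulo-/-, against 23.9% of all genes tested, and 0 non-overlapping lower levels, against 12%. Their median log2 change was 1.13, where all genes had 0.03. Fosl2, Egr2, Egr3, Atf3, Klf4, Nr4a1, Nr4a2, Myc, Maff and Ppp1r15a were not tested there. The wild type values rest on few molecules: wild type 1 had 34 cells of this class, in which a single UMI is worth 7.45 CPM, while Gulo-/- 2 had 4314 cells.

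Zfp36 had 0, 13.2, 81.9 and 70.4 CPM in the order wild type 1, wild type 2, Gulo-/- 1 and Gulo-/- 2, from 0, 13, 39 and 1637 UMIs. Both Gulo-/- libraries lay far above, and the log2 change was 2.64 ± 0.47 (adjusted p 0.000737). Dusp1 had 7.45, 29.6, 58.8 and 160 CPM, with a single UMI in wild type 1, and a log2 change of 2.11 ± 0.47 (adjusted p 0.0261). Here the libraries within each genotype lay apart as well, the Gulo-/- ones by 2.72-fold. Egr1 had 14.9, 16.3, 63.0 and 61.5 CPM, from 2, 16, 30 and 1430 UMIs, and a log2 change of 1.85 ± 0.43 (adjusted p 0.0121). The 2 libraries of a genotype agreed closely for Egr1 in this class. Junb had 67.0, 67.3, 185 and 304 CPM and a log2 change of 1.81 ± 0.32 (adjusted p 0.000735). Ier2 had 7.45, 31.6, 75.6 and 116 CPM and a log2 change of 1.79 ± 0.39 (adjusted p 0.00711). Jund had 67.0, 103, 225 and 271 CPM and a log2 change of 1.37 ± 0.31 (adjusted p 0.00954). Junb, Ier2 and Jund shared an order, with both wild type libraries at the bottom and Gulo-/- 2 at the top. Btg2 had 44.7, 31.6, 71.4 and 108 CPM and a log2 change of 1.35 ± 0.37, and its adjusted p of 0.0494 was the closest to the threshold. The call of Btg2 was lost with a term for sex (adjusted p 0.191), without the highest doublet scores (0.0539), with the shared barcodes kept (0.0612), with no filter on low counts (0.0623) and at a stricter marker gate of 30% of the typical level (0.174). At that gate, which was chosen after seeing the data, Dusp1 (0.0790) and Ier2 (0.708) were not called either.

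The other named members were not called in thick ascending limb cells. Fos had 134, 88.7, 143 and 394 CPM (log2 change 1.34 ± 0.38, adjusted p 0.127), so Gulo-/- 1 lay just above wild type 1. Jun had 89.4, 93.8, 111 and 308 CPM (log2 change 1.15 ± 0.36, adjusted p 0.178). For both AP-1 genes Gulo-/- 2 alone stood clear of the rest. Zfp36l1, Btg1, Nfkbia, Mcl1, Gadd45g and Klf9 had log2 changes of -0.05 to 0.98 and adjusted p-values of 0.619 and higher. By DESeq2, 1 member, Junb, was called. Single libraries moved the called members. Without Gulo-/- 2, Dusp1 had a log2 change of 1.18 (adjusted p 0.312), Ier2 of 1.47 (0.112) and Btg2 of 1.04 (0.421), and without wild type 1 Jund had 1.15 (0.178). Without wild type 2, Dusp1 had 4.02 and Ier2 3.78, both set against a single wild type UMI, and for Zfp36 0 wild type UMIs were left, so that its fitted change there has no meaning. Egr1 kept to 1.77 to 2.1 and Junb to 1.46 to 2.04 with any 1 library left out. Without wild type 2 a single wild type library of 34 cells was left, and all 7 calls were lost. The median log2 change of the tested members was then 1.16, where all genes had 0.05. The median thick ascending limb cell had a mitochondrial share of 26.14% to 38.87% by library. With cells above 25% removed, 11, 21, 25 and 1973 cells were left, so wild type 1 fell below the 20 cells asked of a tested class. Of the 16 members that could be tested 0 were called by edgeR, as were 0 of all 1466 genes. An unadjusted p under 0.05 was found for 11 of the 16 and for 116 of the 1466. The median log2 change over these 16 members was 1.58. In this class the summed endothelial markers stood at 0.609%, 0.654%, 1.14% and 1.38% of their endothelial level. The median tested member stood at 12%, 31.2%, 19.6% and 29.6% of its own. The limit that the gate sets on marker shares holds here too. Markers of other tubule cells were higher in the Gulo-/- libraries of this class too. The summed distal convoluted and connecting tubule markers were 491.7, 456.6, 1633.3 and 1391.3 CPM, and the summed principal cell markers were 7.4, 73.4, 126.0 and 423.7 CPM, with 7 of the 8 principal cell markers at 0 in wild type 1. Their part in the 7 calls was not tested.

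**Figure D3:**
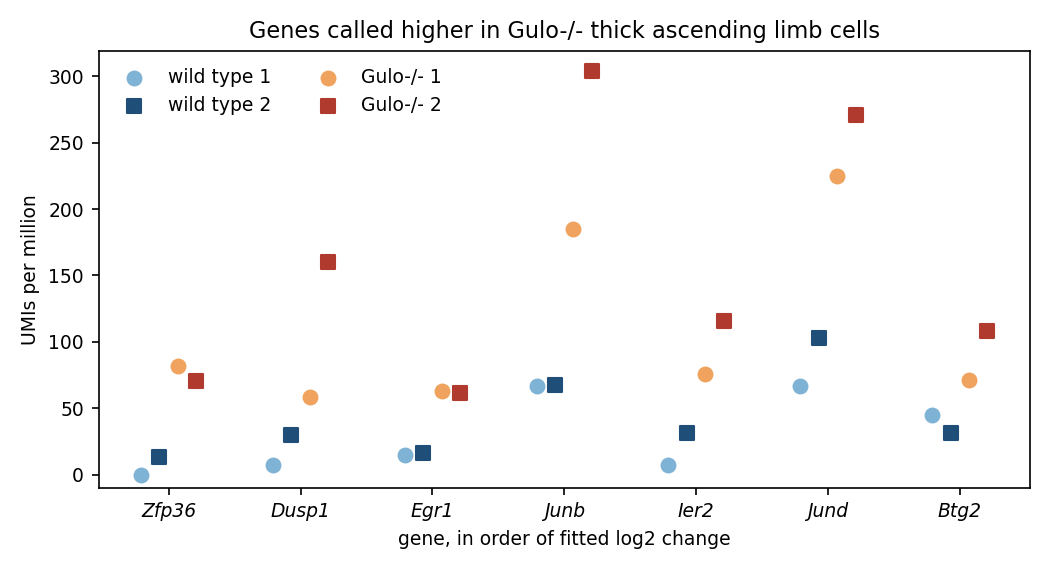
Levels (vertical axis, CPM) of the 7 genes that passed the test in thick ascending limb cells, in order of fitted log2 change (horizontal axis), with a point for each library. Both Gulo-/- points lie above both wild type points for each gene, and Gulo-/- 2 (red) is the highest for 5 of the 7, Zfp36 and Egr1 being the exceptions.

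In endothelial cells, where the members were abundant, the wild type libraries disagreed. Wild type 2 was low and wild type 1 stood near the Gulo-/- libraries. Of 6338 genes tested 20 were called, 1 of them, or 0.0158% of the genes tested, higher in Gulo-/-. Of the 30 tested members 0 were called by edgeR and 0 by DESeq2. An unadjusted p under 0.05 by edgeR was found for 8 of the 30 and for 572 of the 6338 genes. Higher levels without overlap were found for 15 of the 30, against 26.8% of all genes tested, and lower levels without overlap for 0, against 11.8%. The median log2 change was 0.58, where all genes had 0.01.

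Fos was at 1041 CPM in wild type 1, 129 in wild type 2, 563 in Gulo-/- 1 and 1074 in Gulo-/- 2 in endothelial cells. Wild type 1 was thus 8.09-fold above wild type 2 and level with Gulo-/- 2, and the log2 change of 0.44 ± 0.97 had an adjusted p of 0.955. Jun had 1576, 434, 1410 and 1852 CPM and a log2 change of 0.63 ± 0.51 (adjusted p 0.784). Junb had 1131, 244, 1097 and 1652 CPM and a log2 change of 0.94 ± 0.64 (adjusted p 0.738). Egr1 had 199, 69.7, 109 and 201 CPM and a log2 change of 0.15 ± 0.45 (adjusted p 0.969). All 4 genes were lowest in wild type 2 and overlapped between the genotypes. Dusp1 (822, 323, 774 and 972 CPM), Zfp36 (215, 78.5, 189 and 226 CPM) and Btg2 (555, 196, 328 and 481 CPM) had the same order of a single low library. Some members did not overlap. Jund had 720, 294, 911 and 1117 CPM (log2 change 0.92 ± 0.36, adjusted p 0.486). Klf4 had 364, 224, 585 and 596 CPM (log2 change 0.90 ± 0.27, adjusted p 0.284). Gadd45g had 159, 56.7, 262 and 376 CPM (log2 change 1.5 ± 0.40, adjusted p 0.23). For Nfkbia, the member whose genotypes failed to overlap in the most classes, the endothelial values were 402, 373, 603 and 541 CPM (log2 change 0.44 ± 0.25, adjusted p 0.667).

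Of the 30 endothelial members 27 had their lowest level in wild type 2, where 44.1% of all genes tested did. Endothelial cells of wild type 2 also had a median mitochondrial share of 26.02%, where the other libraries had 9.36% to 11.19%, and their summed proximal tubule markers were 1717.5 CPM, where the others had 529.4 to 897.2. With cells above a mitochondrial share of 25% removed, the summed member level was 5007.8 CPM in wild type 2 and 11326.9 to 13833.1 in the others. The 57 endothelial cells then left in wild type 2 had a median share of 21.28%, where the other libraries had 8.11% to 11.12%. The libraries thus stayed unmatched in this share, and its part in the low level was not tested. Left out in turn, the wild type libraries moved the result most. The median log2 change of the members was 1.10 without wild type 1 and 0.33 without wild type 2.

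Macrophages showed the same 2 wild type levels, and their Gulo-/- libraries disagreed as well. Of 3014 genes tested 4 were called, 1 of them, or 0.0332% of the genes tested, higher in Gulo-/-. Of the 27 tested members 0 were called by edgeR and 0 by DESeq2. An unadjusted p under 0.05 by edgeR was found for 2 of the 27 and for 264 of the 3014 genes. Higher levels without overlap were found for 5 of the 27, against 31.9% of all genes tested, and lower levels without overlap for 0, against 9.85%, so the members' share lay below that of all genes. The median log2 change was 0.19, where all genes had -0.01.

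Fos had 1184, 307, 616 and 2004 CPM in macrophages in the order wild type 1, wild type 2, Gulo-/- 1 and Gulo-/- 2. Jun had 1037, 553, 673 and 2200 CPM, and Dusp1 had 1339, 354, 405 and 1343 CPM. In each of the 3 genes wild type 2 and Gulo-/- 1 were the low libraries, and these are the 2 male ones. Egr1 had 265, 108, 16.2 and 385 CPM, from 36, 48, 2 and 155 UMIs. Junb was an exception, since its genotypes did not overlap at 699, 491, 876 and 2140 CPM (log2 change 1.12 ± 0.41, adjusted p 0.386). Atf3, a stress-induced repressor, was highest in wild type 1 at 647 CPM, where the others had 80.7, 89.2 and 176 CPM. The median log2 change fell to -0.21 without wild type 2 and to -0.38 without Gulo-/- 2, and it was 0.97 without wild type 1 and 0.66 without Gulo-/- 1. The macrophages of the libraries were few, 33, 96, 51 and 111, and their median mitochondrial shares were 12.88%, 21.81%, 9.18% and 8.12%.

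In distal convoluted and connecting tubule cells 16 members were tested, and 0 were called by edgeR and 0 by DESeq2. An unadjusted p under 0.05 by edgeR was found for 3 of the 16 and for 280 of all 3581 genes. Of 3581 genes tested 4 were called, 2 of them, or 0.0559% of the genes tested, higher in Gulo-/-. Higher levels without overlap were found for 5 of the 16, Fos, Egr1, Ier3, Btg2 and Nfkbia, against 22.3% of all genes tested, and lower levels without overlap for 0, against 13.2%. The median log2 change was 0.61, where all genes had 0.01. Fos had 103, 32.1, 121 and 177 CPM from 14, 13, 33 and 755 UMIs (log2 change 1.44 ± 0.41, adjusted p 0.192). Egr1 had 0, 17.3, 32.9 and 57.3 CPM from 0, 7, 9 and 244 UMIs (log2 change 1.88 ± 0.63, adjusted p 0.351). The wild type values of this class rest on 32 and 58 cells.

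Differences between single libraries show how far genotype and library can be told apart. In proximal tubule cells the median difference over the 30 members was 0.98 for Gulo-/- 1 minus wild type 1 and 1.18 for Gulo-/- 2 minus wild type 2, and for the same-sex pairs it was 1 for Gulo-/- 2 minus wild type 1 and 0.80 for Gulo-/- 1 minus wild type 2. Within a genotype it was -0.27 for wild type 2 minus wild type 1 and 0.55 for Gulo-/- 2 minus Gulo-/- 1. All 4 differences between genotypes were thus larger than both within them, and the medians over all genes were -0.01 to 0.04. In thick ascending limb cells the differences between genotypes were 0.59, 1.39, 1.17 and 0.71 in that order, and those within were 0.08 and 0.34. In endothelial cells they were 0.12, 1.13, 0.38 and 1.14 between genotypes, and -0.88 and 0.09 within. In macrophages they were -1, 1.18, 0.09 and 0.38 between genotypes, and -1.21 and 0.96 within. In distal convoluted and connecting tubule cells they were 0.33, 0.67, 0.36 and 0.59 between genotypes, and -0.08 and 0.37 within. Gulo-/- 2 was the highest library for 23 of 30 members in proximal tubule cells and for 17 of 24 in thick ascending limb cells, where 34.4% and 28.3% of all genes tested had their highest level in it. Dissociation times and methods are not in the labels, so a dissociation response that differed between the kidneys of the 2 genotypes and a difference that was there before dissociation cannot be told apart.

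**Figure D4:**
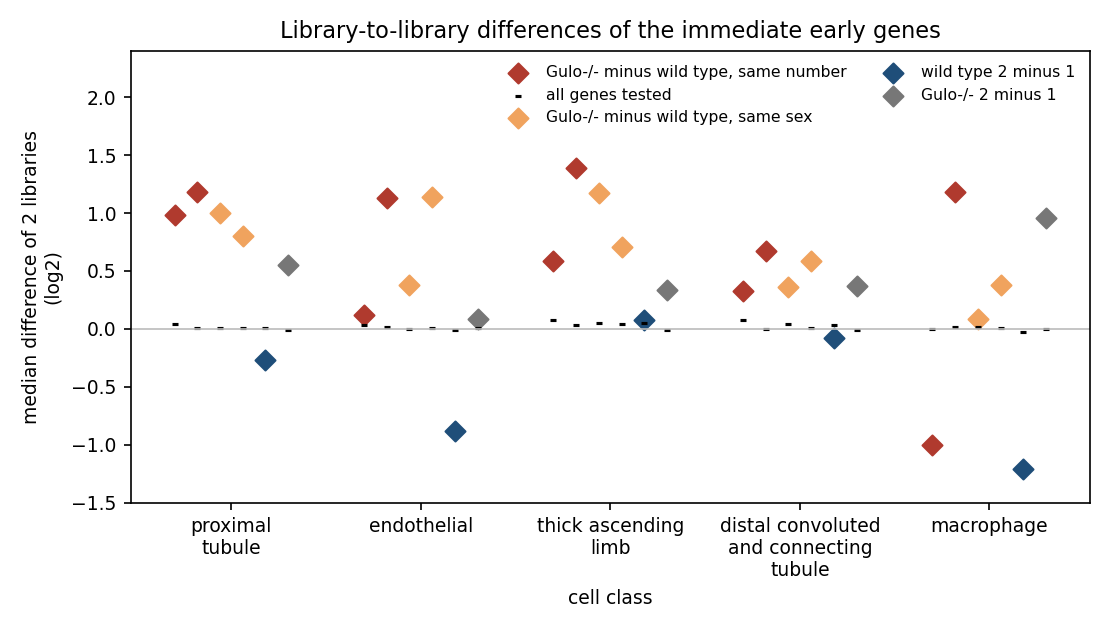
Median difference (vertical axis, log2) of the tested members between 2 libraries in 5 cell classes (horizontal axis). Red and orange diamonds are Gulo-/- minus wild type in same-number and same-sex pairs, blue and grey diamonds are differences within a genotype, and black dashes are the medians over all genes tested. In proximal tubule and thick ascending limb cells every between-genotype diamond lies above both within-genotype ones, while in macrophages they are mixed.

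Whether the genotype difference of a gene depended on the class was tested by an interaction model over all 5 classes. It called 91 of 8471 genes, or 1.07%, and 0 of the 31 members tested. An unadjusted p under 0.05 was found for 10 of the 31 and for 772 of the 8471 genes by this edgeR test. Btg2 had the smallest adjusted p of the members at 0.144, with a log2 change 2.1 lower in endothelial cells than in proximal tubule cells. A fit with a library left out keeps a single library of that genotype, so its member calls are not read here. With all 4 libraries and no filter on low counts, 9 of 34 members were called, beside 362 of all 18569 genes. At a mitochondrial limit of 25%, 2 of 30 members were called, beside 75 of all 7397 genes. The member calls thus depended on the filters. The main fit does not show that the members differed between classes in their genotype difference, nor does it show that they were alike.

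Other immediate early and stress genes, in lists chosen beside the members, were tested in the same fits. Of 31 further immediate early and dissociation genes, 22 were tested in proximal tubule cells, where 2 were called higher and 0 lower. In thick ascending limb cells 13 were tested, and 3 were called higher and 0 lower. The median log2 change of this list was 0.43 and 0.82 in these classes, where the members had 1.10 and 1.13. Non-overlapping higher levels were found for 11 of the 22 and 8 of the 13, against 35.7% and 23.9% of all genes. Non-overlapping lower levels were found for 3 and 0, against 16.1% and 12%. DESeq2 called 3 in proximal tubule and 0 in thick ascending limb cells. Socs3, a feedback inhibitor of cytokine receptors, was called in both: it had 0.272, 0.539, 4.29 and 8.96 CPM in proximal tubule cells (log2 change 3.72 ± 0.57, adjusted p 0.0414) and 7.45, 3.06, 37.8 and 56.3 CPM in thick ascending limb cells (log2 change 3.66 ± 0.60, adjusted p 0.000278). Klf2, a transcription factor known from endothelium under flow, was called in both as well. It had 3.40, 5.80, 26.6 and 33.6 CPM in proximal tubule cells (log2 change 2.51 ± 0.32, adjusted p 0.0298), beside the higher endothelial markers given above, and 0, 9.17, 31.5 and 48.8 CPM in thick ascending limb cells. Sgk1, a kinase that raises sodium transport, was called in thick ascending limb cells at 0, 3.06, 29.4 and 31.4 CPM (log2 change 3.42 ± 0.72, adjusted p 0.00513). In the other 3 classes 0 genes of this list were called by edgeR or DESeq2, with 2 endothelial genes at an unadjusted p under 0.05. The median log2 changes of the list were 0.53, 0.10 and -0.14 in endothelial, distal and macrophage cells.

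A list of heat shock genes held genes that went in either direction in proximal tubule cells. Their relation to dissociation was not tested. Of 15 genes, 15 were tested in proximal tubule cells, and 0 were called by edgeR and 3 by DESeq2. An unadjusted p under 0.05 by edgeR was found for 7 of the 15 and for 1858 of all 11152 genes. Non-overlapping lower levels in Gulo-/- were found for 9, where 16.1% of all genes had them. The median log2 change of the 15 was -0.79 in these cells. Hsp90aa1 had 392, 301, 133 and 166 CPM there, and Hsph1 39.6, 33.7, 14.9 and 15.7 CPM. The inducible Hspa1a (25.7, 15.6, 28.3 and 34.9 CPM) and the small heat shock gene Hspb1 (7.21, 3.84, 20 and 9.04 CPM) were the 2 with non-overlapping higher levels, where 35.7% of all genes had them. In the other 4 classes the median log2 change of this list was -0.63 to -0.35, and 0 genes were called by either tool, with 1, 0, 3 and 1 at an unadjusted p under 0.05 in endothelial, thick ascending limb, distal and macrophage cells.

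The list of ERK, p38, JNK and SRF signalling genes gave no call by edgeR. Of 27 genes of ERK, p38, JNK and SRF signalling, 26 were tested in proximal tubule cells, and 0 were called by edgeR and 1 by DESeq2. An unadjusted p under 0.05 by edgeR was found for 3 of the 26 and for 1858 of all 11152 genes. The median log2 change of the 26 was 0.18. Non-overlapping higher levels were found for 16 of the 26, against 35.7% of all genes, and lower ones for 2, against 16.1%. In thick ascending limb cells 15 were tested. There 9 had non-overlapping higher levels, against 23.9% of all genes, and 1 lower, against 12%. Of 14 NF-kB feedback genes and targets, 11 were tested in proximal tubule cells with a median log2 change of 0.81, and 0 were called by edgeR or DESeq2 while 4 had an unadjusted p under 0.05. In endothelial, thick ascending limb, distal and macrophage cells the medians of this list were -0.25, -0.20, -0.72 and -0.37, over 5, 3, 1 and 6 genes tested. Icam1, a leukocyte adhesion molecule, had 1.09, 1.88, 6.00 and 4.48 CPM, and Nfkbiz 1.63, 1.74, 3.72 and 6.85 CPM. Of 12 cytoskeletal targets of SRF and YAP, 10 were tested, and of 12 targets of p53 and the integrated stress response, 9 were tested, and edgeR called 0 of either list in any class. Counted over the 5 classes, 7 cytoskeletal and 9 stress response tests had an unadjusted p under 0.05, and DESeq2 called 0 and 2. Ccng1, a target of p53, had 83.8, 98.8, 38.3 and 45.9 CPM in proximal tubule cells, with Gulo-/- the lower genotype.

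Classes with too few cells in some library for a test are given as values. Wild type 1 had fewer than 20 cells in each of them. In collecting duct principal cells the summed level of the members was 8744.3 CPM in wild type 2, 5025.8 in Gulo-/- 1 and 7694.8 in Gulo-/- 2, so the wild type library was the highest. In intercalated cells it was 1302.5, 2896.7 and 4574.5 CPM in the same libraries. Egr1 had 817, 276 and 510 CPM in principal cells and 28.1, 40.6 and 177 CPM in intercalated cells. In each of these 3 libraries the sum was higher in principal than in intercalated cells. In wild type 2 and Gulo-/- 2, T and NK cells had 3606.5 and 5921.8 CPM, B and plasma cells 5286.0 and 6643.7, and neutrophils 20595.6 and 22313.6.

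The authors' deposited table of cluster markers lists 18 of the 34 genes, in 45 of its 1919 entries. Its natural-log fold changes compare a cluster with all other cells. In the authors' deposited table the cluster fEC has 12 members, CD-PC 11, EPI 9, CD-IC2 9, CD-IC1 3 and LOH 1, and none of its PT or DCT clusters has any. Its largest value is that of Rhob, a small GTPase of vessel walls, in fEC, at 1.93, where the authors' deposited table gives 77.3% of fEC cells and 6.3% of other cells with the gene. Klf4 follows there at 1.70 and Jun at 1.64. In CD-PC the authors' deposited table has Fos at 1.17 and Egr1 at 1.16, and in CD-IC2 Gadd45a at 1.18. The endothelial and principal cell levels given above have the same ranking over the proximal tubule, though they come from the same cells as that table.

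DNA methylation at the members was compared by the authors between 2 sides of whole kidney bisulfite libraries, and their table of differentially methylated regions does not name the genotype of a side. In bulk kidney a change within cells and a change in the share of a cell type cannot be told apart. The authors' deposited table assigns 243 of its 86510 regions to the members, and each of the 34 has at least 1. Side 1 is the lower in 172 of them, or 70.8%, where this holds for 53.8% of all regions. Promoters of the members hold 18 regions of the authors' deposited table, from 13 members, and side 1 is the lower in 17 of these, or 94.4%, beside 78.5% of all 7867 promoter regions. The median difference of the members' promoter regions is -14.8 percentage points, and that of all promoter regions is -13.6. The shift of the members is therefore close to that of promoters in general.

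Among single promoters the authors' deposited table has Nr4a2, an orphan nuclear receptor, at 12.61% on side 1 and 30.55% on side 2 over 65 CpGs (chr2:57123783-57124292). Atf3 is at 12.2% and 29.57% over 63 CpGs in that table. Klf4 is at 14.17% and 29.97% over 51 CpGs (chr4:55532423-55532878), and the 2 promoter regions of Egr1 in the authors' deposited table are at 11.7% and 29.66%, and at 10.78% and 21.45%. Jund is at 52.01% and 75.7% over 11 CpGs (chr8:70697118-70697918), the widest promoter difference among the members in the authors' deposited table, at -23.69 points. Jun is the exception, at 23.3% on side 1 and 11.91% on side 2. Fos, Junb, Dusp1, Zfp36 and Ier2 have no promoter region in the authors' deposited table.

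**Figure D5:**
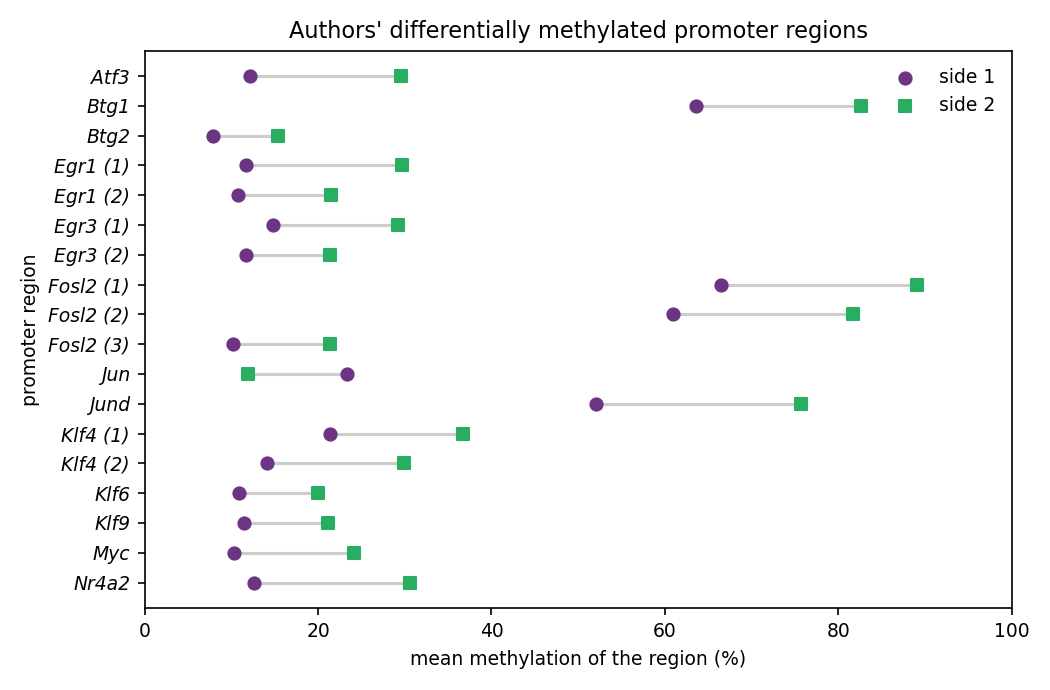
Mean methylation (horizontal axis, %) of the 18 promoter regions that the authors' deposited table assigns to the members (vertical axis, numbered where a gene has several), with purple circles for side 1 and green squares for side 2. Side 1 is the lower everywhere but at Jun and the regions of Btg1 and Jund and a pair at Fosl2 stand far to the right of the rest.

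The regions at Jund and Klf4 span their whole RefSeq windows, which are shown here with each CpG in capitals.
Jund (chr8:70697489-70697788, plus strand): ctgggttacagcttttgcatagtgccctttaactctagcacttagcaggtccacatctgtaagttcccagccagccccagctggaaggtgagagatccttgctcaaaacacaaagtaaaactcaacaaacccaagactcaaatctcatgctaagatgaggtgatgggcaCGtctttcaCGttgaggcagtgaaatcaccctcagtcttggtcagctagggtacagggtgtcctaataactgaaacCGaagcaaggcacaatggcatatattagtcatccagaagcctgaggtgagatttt
Klf4 (chr4:55532426-55532725, minus strand): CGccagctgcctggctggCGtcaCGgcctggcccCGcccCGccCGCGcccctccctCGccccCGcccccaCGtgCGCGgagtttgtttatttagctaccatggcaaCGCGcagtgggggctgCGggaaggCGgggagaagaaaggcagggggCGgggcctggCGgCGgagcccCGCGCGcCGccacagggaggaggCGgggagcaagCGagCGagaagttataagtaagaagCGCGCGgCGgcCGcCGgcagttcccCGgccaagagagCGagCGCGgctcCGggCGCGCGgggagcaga
The window of Jund holds 3 CpGs and that of Klf4 holds 40, so at these annotated starts the sequence is sparse and dense in CpGs. Whether these are the starts used in kidney was not tested. Both sides had higher methylation in the region of Jund than in that of Klf4. Jund was called higher in Gulo-/- thick ascending limb cells and Klf4 was too sparse there to be tested, and the methylation of single cell classes was not measured.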

How the data were processed

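Single-cell matrices hold UMI counts per gene and barcode as the authors deposited them, and mm10 and Seurat 2.3.4 are named in the submitters' processing notes. Region means in the methylation table are fractions deposited by the authors, beside their differences and distances. Fold changes in the authors' deposited marker table were taken as natural log values, the scale Seurat 2.3.4 writes, and its shares of cells are fractions. No aligner is named in the sources used here.

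Barcodes with at least 500 UMIs, 200 genes and at most 50% mitochondrial UMIs were kept, without those wild type 2 shared with wild type 1. A cell entered a class if it had at least 3 UMIs of 2 or more markers and 15% of the typical marker share, and a cell that met a second class at 50% or more of the first was left out as a possible doublet. UMIs were summed per class and library, 123323 to 40853946 a sum in the 5 classes, which limits the precision of low genes in the small sums. Genotype was tested with edgeR 4.0.16 (quasi-likelihood, TMM, filterByExpr) in R 4.3.3, adjusted over all genes, and the code was tested on simulated data. SE is the log2 change over the square root of the F statistic. DESeq2 1.42.0, blocks and other filters were alternatives. The members and lists were chosen with earlier results of these data known. Named members were those called in any class, the 12 most abundant in proximal tubule cells, and those whose genotypes did not overlap in at least 4 classes; Fosb, Fosl2, Klf4 and other members given with values were added to show their group. Bisulfite regions were summarised as deposited, and MeRIP-seq and its RNA-seq samples were not analysed here.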

Additional observations from a re-analysis of the deposited data

How the results depend on the processing

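Each value is set beside its main one, and the cause of a change was not tested unless fewer genes or cells explain it. The counts of called genes were 57 in proximal tubule, 20 in endothelial, 86 in thick ascending limb, 4 in distal convoluted and connecting tubule and 4 in macrophage cells, and in that order they became 90, 41, 137, 34 and 16 on total UMIs without TMM, 953, 258, 183, 65 and 109 with no filter on low counts, and 180, 260, 174, 53 and 146 with the replicate block, in which 5, 2, 10, 0 and 1 members were called. Same-numbered libraries correlated at -0.025 to 0.206 in their deviations from the group means, and the labels tie no number to an animal or day, so the numbers were not taken as pairs. DESeq2 called 362, 62, 11 and 14 in all but the distal class, with 10, 0, 1 and 0 members. The sex block called 3, 0 and 20 in proximal tubule, distal and macrophage cells, with 0 members. The mitochondrial limit of 25% called 0 in endothelial, thick ascending limb, distal and macrophage cells. It left 11 thick ascending limb cells in wild type 1 and 3 distal cells in wild type 2. Keeping the shared barcodes called 102, 59, 23 and 23 in all but the thick ascending limb, removing the highest Scrublet scores 32, 9 and 0 in endothelial, distal and macrophage cells, and doubling the marker minimum 13 in macrophages. Leaving out each library in turn gave 0 to 317, 127 to 239, 6 to 168, 0 to 90 and 0 to 133 calls, the 0 in proximal tubule cells being without Gulo-/- 1 and without Gulo-/- 2, where 1085 and 1144 genes had an unadjusted p under 0.05. The interaction called 91 genes, 362 with no filter, 40 at a gate of 30% of the typical marker level, which was chosen after seeing the data, and 3 to 301 with a library left out.

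The median log2 change of the members was 1.27 in proximal tubule cells without TMM, where the median of all genes moved to 0.19. With no filter it was 1.38 in thick ascending limb and 0.95 in distal cells, where the medians of all genes moved to 0.27 and 0.32. In thick ascending limb cells it was 1.58 at the mitochondrial limit, over 16 members, and 0.94 with the sex block. With a library left out it was 0.33 to 1.10 in endothelial and 0.52 to 1.42 in thick ascending limb cells.

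Changes of sign came in classes where the member was not called. In proximal tubule cells Gadd45g went to 0.09 without TMM and Btg1 to -0.09 without Gulo-/- 2, with ranges over libraries left out of -0.78 to 0.43 and -0.09 to 0.65. In thick ascending limb cells Klf9 went to 0.06 without TMM, 0.03 with the replicate block and 0.09 at the 30% gate (-0.72 to 0.85). In endothelial cells Egr1 went to -0.05 at the mitochondrial limit and Btg2 to -0.15 with shared barcodes, and the ranges were -0.38 to 2.41 for Fos, -0.38 to 0.91 for Egr1, -0.07 to 1.15 for Zfp36 and -0.48 to 0.79 for Btg2. In distal cells Klf9 went to 0.02 without TMM and 0.05 with the sex block (-0.30 to 0.31), Btg1 to 0.02 and Zfp36l1 to -0.12 at the 30% gate (-0.53 to 0.20 and -0.51 to 3.14), and Mcl1 to -0.03 without the highest Scrublet scores (-0.12 to 0.25). In macrophages Egr1 went to -0.17 by DESeq2, -0.08 with the replicate block and -0.75 with the sex block (-3.55 to 0.80), Mcl1 to 0.12 without TMM and 0 with the replicate block (-0.68 to 0.54), and Dusp1 to 0.13 without TMM (-1.16 to 1.03). The macrophage ranges were -0.37 to 1.81 for Fos, -0.37 to 1.17 for Jun, -0.38 to 1.06 for Ier2, -0.93 to 0.80 for Zfp36, -1.14 to 0.06 for Zfp36l1, -0.21 to 0.72 for Btg1, -0.28 to 0.65 for Btg2 and -0.12 to 1.24 for Nfkbia. A library left alone in its genotype is assumed to vary like the others. The 7 calls in thick ascending limb cells rest on 0 to 9 UMIs per gene in wild type 1, and depth limits what could be called there and among the 33 macrophages of that library.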
